A study of Mus musculus with 17 samples.

Results

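The genes described here encode the proteins of the cytosolic ribosome. They were chosen by name: every protein-coding mouse gene whose symbol is Rpl or Rps followed by a digit, or is Rplp0, Rplp1, Rplp2 or Rpsa, with the Rps6k kinases and the pseudogenes left out. The rule took 86 of the 55335 genes in the count tables. Of these, 77 encode standard ribosomal proteins (46 of the large and 31 of the small subunit, called canonical below), 8 are paralogs or variant copies (Rpl3l, Rpl7l1, Rpl10l, Rpl22l1, Rpl36al, Rpl39l, Rps27l and Rps27rt), and Rps19bp1 is a binding protein of Rps19 that is not part of the ribosome. The family was taken up with its differences between these libraries already known, so the counts and medians over its members are descriptions.

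Each ribosome carries one copy of nearly all of these proteins, which are made in the cytoplasm, imported into the nucleolus and assembled there on ribosomal RNA, so a cell has to make them in balance. Their mRNAs are short, abundant and mostly begin with a run of pyrimidines, the 5' terminal oligopyrimidine (TOP) tract, through which the mTOR kinase and the RNA-binding protein Larp1 regulate their translation and stability. Ribosome production is known to rise when stem cells leave rest and grow. The mammalian genome also holds many processed pseudogenes of the family, so that short reads from these mRNAs can match several places.

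The study asked how Cxcr4, the receptor of the chemokine Cxcl12, acts in the stromal cells of bone. It compared wild-type mice (Cxcr4+/+, WT) with mice carrying 1 or 2 copies of the knock-in allele Cxcr4 1013 (+/1013 and 1013/1013), which truncates the cytoplasmic tail of the receptor, impairs its desensitization and leaves it overactive. The allele is in the germ line and so is carried by all cells of the animal. Bulk RNA sequencing was done on 2 populations sorted from the bone fraction of female littermates aged 8 to 12 weeks: skeletal stromal cells (SSCs; CD45- TER119- CD31- CD51+ Sca-1+ PDGFRα+) and osteoprogenitor cells (OPCs; CD51+ Sca-1-, PDGFRα+ or -). Each library came from 3000 cells pooled from 3 mice, with 3 libraries in each of 5 groups and 2 in SSC 1013/1013, 17 in all.

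The libraries held between 44217695 and 92683497 counts on genes, with every OPC library deeper than every SSC library. Several measures other than the family moved with genotype in SSCs. Ly6a, which encodes the Sca-1 antigen of the sort, was at 599, 386 and 405 CPM (counts of the gene scaled to the size of its library) in SSC WT, 1366, 889.7 and 989 CPM in SSC +/1013 and 1449.7 and 837 CPM in SSC 1013/1013, all mutant libraries above WT, against 0.568 to 12.4 CPM in OPCs. The sum of 5 SSC sort markers was 1342 to 1730 CPM in WT, 2363 to 3143 CPM in +/1013 and 1938 to 3719 CPM in 1013/1013. Other antigens of the sort did not follow Ly6a. Itgav, which encodes CD51, was at 53.9, 49.5 and 59.7 CPM in SSC WT, above every mutant library. It measured 17.8, 35.8 and 31.2 CPM in +/1013 and 30.9 and 26.5 CPM in 1013/1013. Pdgfra overlapped between genotypes, at 396, 414 and 339 CPM, 387, 364 and 522 CPM and 461 and 341 CPM. Reads that fell in no annotated gene took 3.68 to 4.15% in SSC WT, 1.53 to 1.80% in SSC +/1013 and 1.504 to 2.69% in SSC 1013/1013. The WT libraries had 21449 to 22599 genes with a count, the +/1013 libraries 17808 to 19227, and the 1013/1013 libraries 15748 and 19222. Of the SSC libraries, WT replicate 3 stood apart by its leukocyte transcripts, and 1013/1013 replicate 1 by its few genes detected and by 2.36% of counts on mitochondrial genes. The summed level of 10 leukocyte markers was 177 to 5550 CPM in SSC WT, 45.7 to 121 CPM in SSC +/1013 and 542 to 966 CPM in SSC 1013/1013, with the pan-leukocyte gene Ptprc at 7.71, 1.26 and 119.6 CPM in WT against 0.103, 0.92 and 0 CPM in +/1013 and 0.0367 and 9.2 CPM in 1013/1013. The 7 osteoprogenitor markers summed to 9694 to 13574 CPM in SSC WT, 5170 to 7189 CPM in SSC +/1013 and 3933 to 8078 CPM in SSC 1013/1013. The part of these differences in the results on ribosomal protein genes was not tested, and library preparation and genotype cannot be told apart where all libraries of a genotype differ together.

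In SSCs, ribosomal protein transcripts took a larger share of the library in both mutant genotypes than in WT. The 86 genes held 0.461, 0.495 and 0.535% of the counts on genes in the 3 WT libraries (0.497 ± 0.0369%, SD, n = 3). In +/1013 they held 1.05, 0.906 and 0.883% (0.947 ± 0.0918%, n = 3), and in 1013/1013 they held 1.03 and 0.904% (0.965 ± 0.0866%, n = 2). Every mutant SSC library therefore lay above every WT library, while both mutant genotypes overlapped each other. In bulk libraries, fewer cells of a type and less RNA per cell cannot be told apart, and a share says nothing about the amount of RNA per cell.

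In OPCs the same genes held less of the library and did not separate the genotypes. The share was 0.235, 0.239 and 0.240% in WT, 0.295, 0.216 and 0.204% in +/1013, and 0.256, 0.197 and 0.247% in 1013/1013. Collagen genes alone took 26.1 to 42.8% of the counts in OPCs, against 1.93 to 6.21% in SSCs. With collagen and mitochondrial genes left out of the total, the mean shares in OPCs were 0.394% in WT, 0.377% in +/1013 and 0.348% in 1013/1013, still under the 0.531% of SSC WT. Both subunits held a larger share in every mutant SSC library than in any SSC WT library, but not to the same degree. Large-subunit genes had 1.72 to 1.75 times the counts of small-subunit genes in SSC WT. In the mutant SSC libraries the ratio was 1.56 to 1.73, and only +/1013 replicate 2, at 1.73, was not below the WT range. The small subunit thus rose somewhat more than the large in the other mutant SSC libraries.

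**Figure D1:**
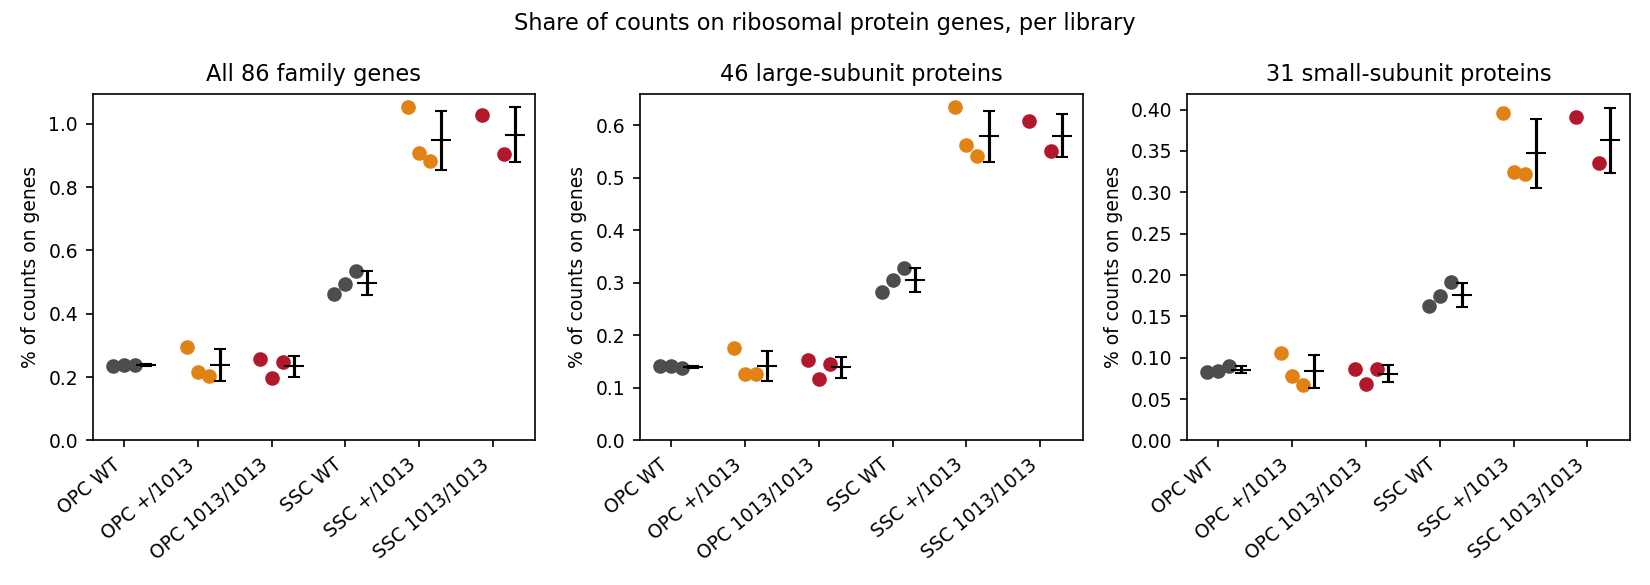
Percent of the counts on genes that fell on ribosomal protein genes, for each of the 17 libraries by group, for all 86 genes, the 46 large-subunit proteins and the 31 small-subunit proteins; dots are libraries and the bars beside them give the mean ± SD. The 5 mutant SSC libraries (0.883 to 1.05% for all genes) lie above the 3 SSC WT libraries (0.461 to 0.535%), and the OPC libraries (0.197 to 0.295%) lie below both.

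The shift in SSCs was seen in nearly all of the genes. Against the WT mean, on log2(CPM + 0.5) with CPM scaled by the trimmed mean of M values (TMM) over the 17 libraries, the median canonical gene stood at 1.29, 1.18 and 1.08 in the 3 +/1013 libraries and at 1.18 and 1.20 in the 2 1013/1013 libraries. In each of these 5 libraries, 75 of the 77 genes were above the WT mean. The SSC WT libraries themselves deviated by -0.03 to 0.04. In OPCs the WT libraries deviated by -0.16 to 0.15 and those of both mutant genotypes by -0.33 to 0.00. The summed TMM-scaled level of the family was 3636 ± 116 CPM in SSC WT, 8322 ± 692 CPM in SSC +/1013 and 8410 ± 129 CPM in SSC 1013/1013, against 2995 ± 272, 2790 ± 114 and 2662 ± 360 CPM in the OPCs of the same genotypes (mean ± SD).

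**Figure D2:**
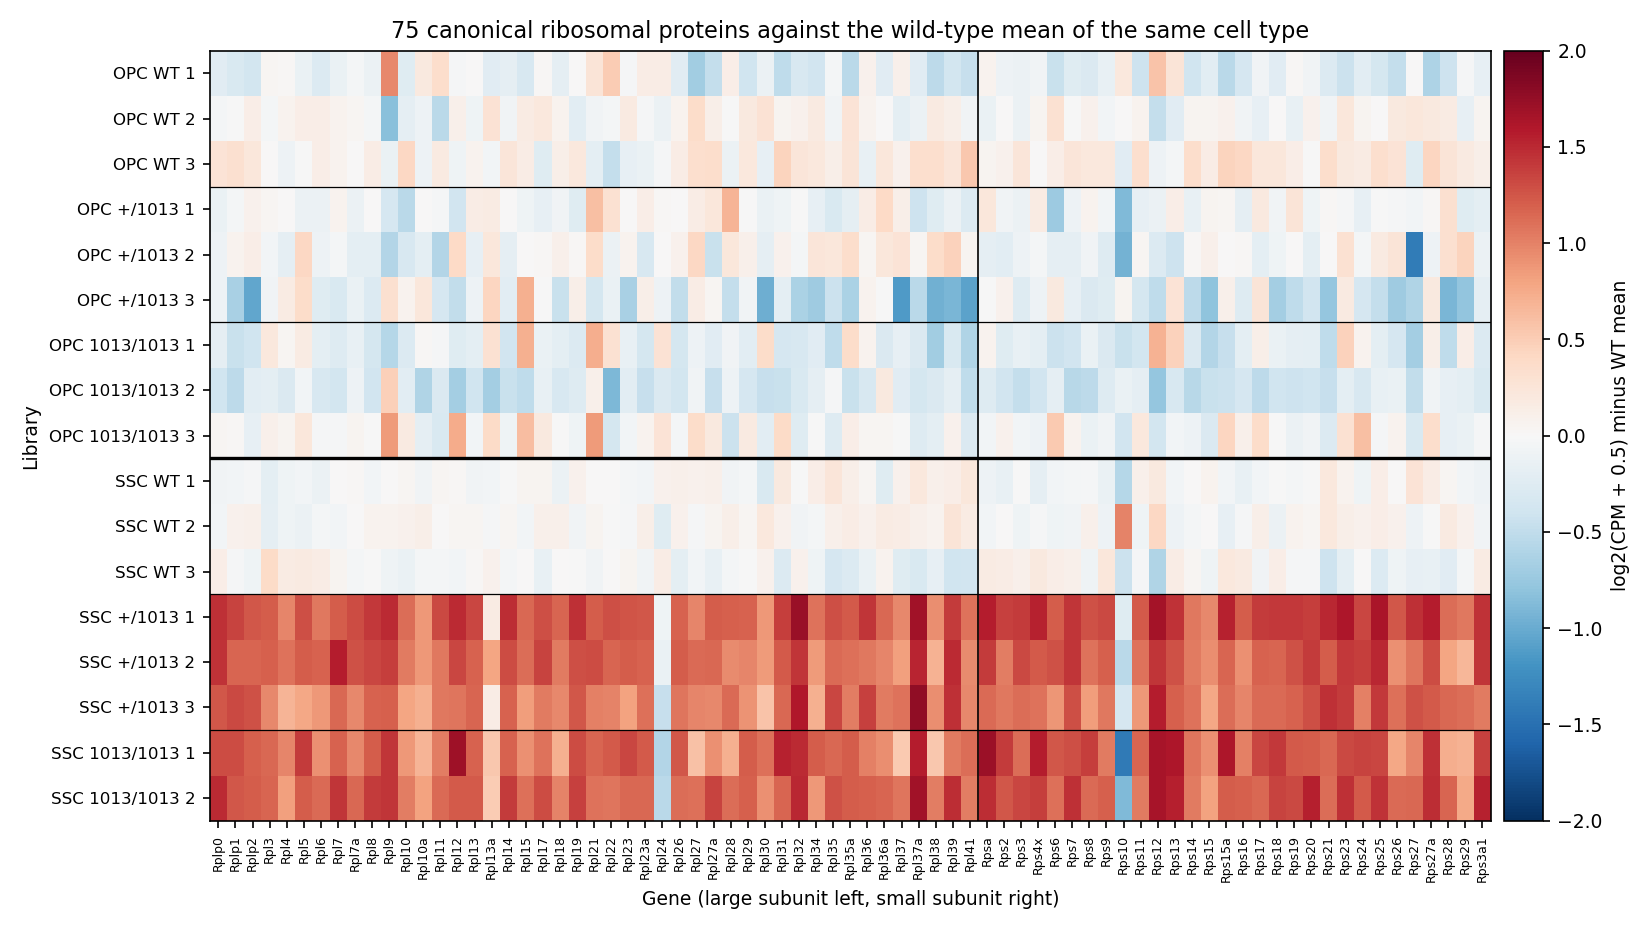
Deviation of 75 of the 77 canonical ribosomal protein genes (columns) in 17 libraries (rows) from the WT mean of the same cell type, on log2(CPM + 0.5), drawn between -2 and 2. The 5 mutant SSC libraries are red across nearly all columns, with medians over the 77 genes of 1.08 to 1.29; Rpl24 and Rps10, both of low level, are the exceptions and Rpl13a is pale.

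The first comparison asked which genes differed between SSCs of +/1013 and WT mice. With edgeR, at a Benjamini-Hochberg adjusted p under 0.05 over all 17659 genes tested and a change of at least 1.5-fold, 12 of the 85 members tested were higher in +/1013 and 0 lower. Over all genes 0.068% were called higher, 12 genes in all, so the genes called higher were all members. Rpl10l, with 1 count in each of 2 OPC libraries and 0 in SSCs, was the member not tested. The 12 were Rplp1, Rpl8, Rpl9, Rpl14, Rpl19, Rpl32 and Rpl37a of the large subunit and Rps7, Rps19, Rps20, Rps23 and Rps25 of the small subunit, and each had the same adjusted p of 0.0475, close to the threshold. At an unadjusted p under 0.05, 76 members were higher and 0 lower, against 7.65% of all genes higher. The 3 +/1013 libraries were all above the 3 WT libraries for 78 members, against 15% of all genes.

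The median log2 fold change of the 85 members was 1.14, against -0.11 over all genes tested. Among the 65 canonical genes that averaged 10 CPM or more it was 1.22, with a range of 0.81 to 1.66, and all 65 were higher in +/1013. Large-subunit genes had a median of 1.14 (n = 46) and small-subunit genes of 1.24 (n = 31).

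Calls in this comparison depended on which libraries entered the fit, while the median fold change moved little with them. Leaving out any 1 of the 6 libraries gave 0 calls with medians of 1.09 to 1.20, and leaving out both libraries that stood apart gave 0 calls with a median of 1.17. The Wald test of DESeq2 called 73 members higher and 0 lower, against 2.79% of all genes called higher.

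The stalk proteins Rplp0, Rplp1 and Rplp2 form the flexible arm of the large subunit that recruits translation factors, and Rplp0 is also a common reference gene in quantitative PCR. Rplp0 (chromosome 5, 115559467 to 115563727, plus strand; whole genes on GRCm38 from GENCODE M21, here and below) measured 220.3, 223 and 254 CPM in SSC WT, 636, 636 and 548 CPM in +/1013 and 571 and 653 CPM in 1013/1013. Its libraries did not overlap between WT and either mutant, with log2 fold changes of 1.36 ± 0.17 (SE, adjusted p = 0.0505) in +/1013 and 1.40 ± 0.19 (adjusted p = 0.0671) in 1013/1013. Rplp1 (chromosome 9, 61913284 to 61914542, minus strand) rose from 29.7, 32.7 and 30.3 CPM in WT to 79.7, 70.1 and 78.1 CPM in +/1013, a log2 fold change of 1.28 ± 0.15. For Rplp1, the 2 libraries of 1013/1013 measured 77.3 and 73.9 CPM, again above all WT libraries. Rplp2 (chromosome 7, 141447370 to 141451585, plus strand) measured 18.6, 20.3 and 17.8 CPM in WT, 45.4, 42.97 and 46.5 CPM in +/1013 and 44.02 and 44.4 CPM in 1013/1013, with no overlap and log2 fold changes of 1.23 ± 0.16 and 1.24 ± 0.17 that did not pass the adjusted threshold (adjusted p = 0.0505 and 0.0671). All 3 stalk genes were thus higher in each mutant library, and Rplp1 alone of them passed the threshold.

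Among the other large-subunit genes, Rpl37a showed the largest fold change in +/1013. Rpl37a, a zinc-binding protein of the large subunit (chromosome 1, 72711290 to 72713813, plus strand), measured 19.6, 18.3 and 13.6 CPM in WT, 55.5, 49.5 and 59.4 CPM in +/1013 and 51.2 and 55.1 CPM in 1013/1013. Its rise in +/1013 was 3.15-fold (log2 1.66 ± 0.19), and its lowest mutant library was above its highest WT library by more than the whole WT range. Rpl32 (chromosome 6, 115805505 to 115808747, minus strand) measured 50.2, 47.9 and 53.5 CPM in WT, 169, 137 and 153 CPM in +/1013 and 143 and 145 CPM in 1013/1013, a rise of 1.58 ± 0.16 on the log2 scale in +/1013. Rpl19, which forms a bridge between the subunits, went from 41.2, 37.04 and 38.7 CPM to 109, 96.2 and 93.1 CPM in +/1013 (log2 1.33 ± 0.15). Neither gene overlapped between WT and mutants.

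Per kilobase of mRNA, Rpl4, Rplp0 and Rpl13 were the large-subunit genes with the highest counts over the 17 libraries, and Rps9 and Rps14 were among those of the small subunit. Rpl4, which lines the exit tunnel of the nascent chain (chromosome 9, 64173375 to 64178666, plus strand), measured 264, 265 and 315 CPM in SSC WT, 550.4, 598 and 451 CPM in +/1013 and 551 and 496 CPM in 1013/1013. It was higher in every mutant library, with log2 fold changes of 0.90 ± 0.19 and 0.91 ± 0.21 that were among the smaller ones of the abundant members and did not pass (adjusted p = 0.119 and 0.121). Rpl13 measured 186, 200.05 and 199 CPM in WT, 493, 441 and 438 CPM in +/1013 and 444 and 455 CPM in 1013/1013. Rpl10a, a protein of the stalk on the side where spent tRNA leaves, had the smallest log2 fold change of the 65 canonical genes over 10 CPM, 0.81 ± 0.16 in +/1013 (adjusted p = 0.116) and 0.77 ± 0.18 in 1013/1013 (adjusted p = 0.122), and was still higher in every mutant library.

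In the small subunit, Rps23, a protein of the decoding centre (chromosome 13, 90922958 to 90924950, plus strand), measured 39.3, 40.7 and 32.5 CPM in SSC WT, 115, 100.3 and 99.6 CPM in +/1013 and 93.7 and 104 CPM in 1013/1013. Its rise in +/1013 was 2.76-fold (log2 1.47 ± 0.16). Rps7 measured 28.1, 27.2 and 30.98 CPM in WT and 78.3, 78.1 and 71.2 CPM in +/1013 (log2 1.38 ± 0.15), and Rps20 measured 27.3, 28.2 and 27.1 CPM in WT and 72.4, 73.2 and 67.8 CPM in +/1013 (log2 1.35 ± 0.15). In all 3 genes the WT libraries lay close together and well below the lowest mutant library.

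Rps12 had a log2 fold change of 1.51 ± 0.28 in +/1013 but a wider spread, from 12.7, 14.9 and 7.1 CPM in WT to 35.95, 30.5 and 33.7 CPM in +/1013 and 35.7 and 35.9 CPM in 1013/1013, and did not pass (adjusted p = 0.108 in +/1013). Rpsa, a protein on the back of the small subunit that was also described as a laminin receptor (chromosome 9, 120127689 to 120132369, plus strand), measured 69.9, 72.4 and 84.3 CPM in WT, 225, 199 and 166 CPM in +/1013 and 248 and 210.2 CPM in 1013/1013. Its libraries did not overlap between WT and either mutant, and its log2 fold changes were 1.36 ± 0.19 (adjusted p = 0.0541) and 1.61 ± 0.21 (adjusted p = 0.0671). Rps9, a protein of the mRNA entry, measured 74.5, 76.7 and 96.1 CPM in WT, 206, 188 and 169.9 CPM in +/1013 and 168 and 189 CPM in 1013/1013, and Rps14 85.3, 82.7 and 87.3 CPM, 178, 176 and 182 CPM and 179 and 175 CPM. For both genes, as for Rpsa, each mutant library was above each WT library.

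In 1013/1013 SSCs the same test called 0 members in either direction, and 0 of all 17659 genes. The smallest adjusted p of any gene was 0.0671, a value that members shared. At an unadjusted p under 0.05, 75 members were higher and 0 lower, against 8.37% of all genes higher, and DESeq2 called 75 members higher and 0 lower, against 4.08% of all genes called higher. Both 1013/1013 libraries were above all WT libraries for 80 members, against 16.4% of all genes, and below them for 3 members (Rpl3l, Rpl24 and Rps10), against 24.4% of all genes. The median log2 fold change was 1.20 over members and -0.23 over all genes tested, 1.24 over the 65 canonical genes of at least 10 CPM (range 0.77 to 1.65), 1.18 for the large and 1.29 for the small subunit.

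Rpl37a (1.65 ± 0.21), Rps12 (1.65 ± 0.31) and Rpsa (1.61 ± 0.21) had the largest log2 fold changes in 1013/1013 among members of at least 10 CPM, with adjusted p of 0.0671, 0.0937 and 0.0671. With 1013/1013 replicate 2 left out, so that the genotype rested on replicate 1 alone and its spread was taken from the other groups, 59 members were called higher, against 3.5% of all genes, and 1 lower, against 11.3% of all genes. Without replicate 1 the count stayed at 0.

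The mutant genotypes were compared with each other to ask whether a second copy of the allele added to the difference. With edgeR 0 members were called, 0 passed an unadjusted p under 0.05 in either direction, while DESeq2 called 0 members and gave 1 an unadjusted p under 0.05. Over members, the median log2 difference of 1013/1013 from +/1013 was 0.02, and likewise 0.02 over the 65 canonical genes of at least 10 CPM, whose values ran from -0.19 to 0.31. The 1013/1013 libraries were above all +/1013 libraries for 4 members, against 6.54% of all genes, and below them for 3 members, against 9.33%. The largest differences among members of at least 10 CPM were 0.34 ± 0.33 for Rps27l, 0.31 ± 0.18 for Rps13 and 0.26 ± 0.21 for Rpsa on the one side and -0.19 ± 0.21 for Rps27, -0.17 ± 0.17 for Rpl18 and -0.17 ± 0.21 for Rpl36 on the other, all within about 2 SE of 0. Both mutant groups were set against the same 3 WT libraries, so their fold changes against WT share that reference.

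**Figure D3:**
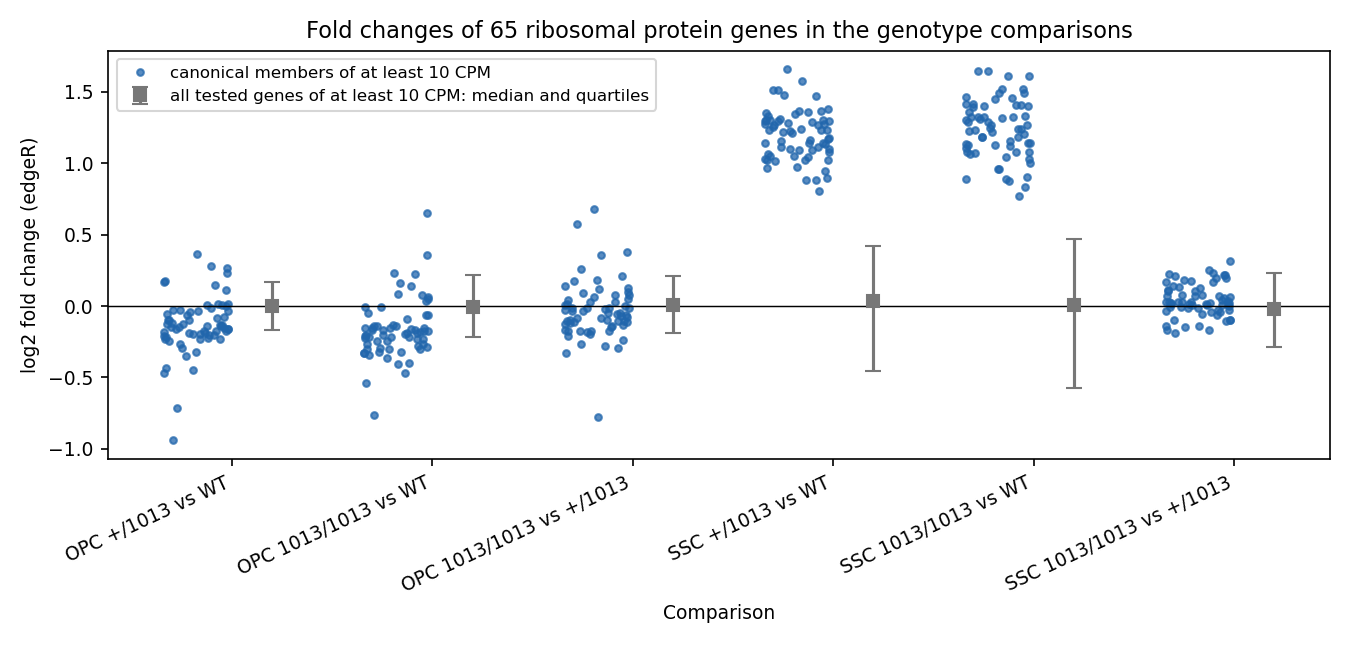
Fitted log2 fold change of the 65 canonical members of at least 10 CPM (dots, 1 per gene) in the 6 genotype comparisons within a cell type, with the median and quartiles of all tested genes of at least 10 CPM in grey. In SSCs of either mutant against WT the dots lie between 0.77 and 1.66; in 1013/1013 against +/1013 they lie between -0.19 and 0.31, and in OPCs most lie below 0.

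The 8 paralogs were less uniform than the canonical genes. Rpl22l1, the paralog of the RNA-binding protein Rpl22, measured 10.3, 9.31 and 9.68 CPM in SSC WT, 12.3, 22.9 and 12.2 CPM in +/1013 and 20.7 and 14.1 CPM in 1013/1013. Rpl22 itself measured 17.8, 17.6 and 17.8 CPM in WT, 43.97, 40.3 and 35.8 CPM in +/1013 and 41.99 and 37.8 CPM in 1013/1013. The log2 fold change was 0.67 ± 0.35 for Rpl22l1 and 1.15 ± 0.17 for Rpl22 in +/1013, and neither passed (adjusted p = 0.367 and 0.0661). For Rpl22l1 the direction turned with the processing, with log2 values of -0.10 to 0.82 over the fits run in +/1013 and -0.03 to 1.05 in 1013/1013.

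Rps27l, a paralog known as a target of p53, measured 41.9, 37.04 and 21.1 CPM in SSC WT, 71.2, 73.9 and 59.6 CPM in +/1013 and 103 and 64.5 CPM in 1013/1013. Its parent Rps27 measured 26.8, 20.6 and 19.6 CPM, 61.8, 47.1 and 54.1 CPM and 43.9 and 49.4 CPM in the same order. Both genes were above WT in every mutant library, but Rps27l varied more within WT. Rps27rt, an intronless retrogene of Rps27, stayed at or under 0.242 CPM in SSCs, on 2 to 13 counts per library, too few for a comparison.

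Rpl7l1, a nucleolar paralog of Rpl7, measured 60.9, 50.2 and 70.5 CPM in SSC WT, 88.8, 83.9 and 77.8 CPM in +/1013 and 75.6 and 81.7 CPM in 1013/1013. The mutant libraries were above WT for Rpl7l1 by 0.44 ± 0.18 and 0.39 ± 0.20 on the log2 scale (adjusted p = 0.266 and 0.328), against 1.30 ± 0.18 and 1.32 ± 0.19 for Rpl7. Rpl36al had 0.635, 0.898 and 1.63 CPM in WT, 0.582, 0.881 and 0.611 CPM in +/1013 and 2.88 and 1.69 CPM in 1013/1013, overlapping WT in +/1013 and above it in 1013/1013, while its parent Rpl36a had 8.82, 11.9 and 11.1 CPM, 23.9, 21.3 and 22.2 CPM and 20.5 and 24.3 CPM and lay above WT in each mutant library without passing (adjusted p = 0.12 and 0.119). Rpl39l, known from testis, had 1.56, 0.824 and 0.854 CPM in WT, 3.77, 0.996 and 1.76 CPM in +/1013 and 1.15 and 1.82 CPM in 1013/1013 and overlapped between genotypes. Its parent Rpl39 had 6.93, 7.58 and 4.63 CPM, 17.3, 18.5 and 18.02 CPM and 13.4 and 18.3 CPM and did not overlap. Rpl3l, the copy known from heart and skeletal muscle, had 0.124, 0.105 and 0.664 CPM in WT, 1.75, 0 and 0.0524 CPM in +/1013 and 0.0367 and 0 CPM in 1013/1013, against 130.4, 131 and 194 CPM, 345, 340.5 and 291 CPM and 329.7 and 335 CPM for Rpl3. Rpl10l, also known from testis, had no count in any SSC library, which allows a level of up to 0.0678 CPM (3 counts in the shallowest library, counting error only), while its parent Rpl10 had 101, 104 and 89.4 CPM, 213, 202 and 169.9 CPM and 179 and 199 CPM.

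Rps19bp1, the family's one gene that is not a ribosomal protein, measured 10.5, 12.2 and 6.63 CPM in SSC WT, 13.1, 11.99 and 12.2 CPM in +/1013 and 17.1 and 9.4 CPM in 1013/1013. Its libraries overlapped, with log2 fold changes of 0.33 ± 0.36 and 0.46 ± 0.40 (adjusted p = 0.721 and 0.54), and its direction changed with the processing. Its partner Rps19 was called in +/1013, at 60.1, 65.1 and 60.6 CPM in WT and 166, 150.3 and 141 CPM in +/1013 (log2 1.28 ± 0.15).

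A group of 3 canonical genes had the lowest log2 fold changes of the 77 in SSCs of either mutant against WT. Each shares exons with another annotated gene, where counting by gene can drop reads. The library kit does not mark strand, so overlap on either strand can matter. Rpl24 measured 0.356, 0.18 and 0.395 CPM in WT, 0.257, 0.23 and 0.0873 CPM in +/1013 and 0.0367 and 0.0558 CPM in 1013/1013, and 47.0% of its exonic bases overlap Gm28037. Rps10 measured 0.402, 2.16 and 0.49 CPM, 0.634, 0.421 and 0.559 CPM and 0 and 0.223 CPM. Of its exonic bases 28.7% are overlapped, most by RPS10-NUDT3. Rpl13a measured 2.12, 2.16 and 2.37 CPM, 2.53, 4.18 and 2.51 CPM and 3.45 and 3.35 CPM, with 35.4% overlapped by Gm45713. Unlike Rpl24 and Rps10, it lay above WT in every mutant library, by 0.45 ± 0.53 and 0.63 ± 0.59 on the log2 scale. Overlap did not go with a low fold change throughout. Of Rpl35 and Rpl23a, 66.2 and 62.3% of exonic bases are overlapped, nearly all on the other strand. Their log2 fold changes in +/1013 were 1.26 ± 0.24 and 1.23 ± 0.29. Their mean levels over all libraries were 8.60 and 4.92 CPM, against 5.43 CPM for Rpl13a. Rpl32, with 14.54% overlapped on the same strand, had a log2 fold change of 1.58 ± 0.16. The levels of genes with overlapped exons are uncertain, Rpl36al included, of which 24.5% overlaps Gm49383. How far the overlap set these values was not tested.

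In OPCs no genotype difference in the family was detected. With edgeR, 0 members were called and 0 passed an unadjusted p under 0.05 in either direction in each of the 3 comparisons, and DESeq2 called 0 in each. The median log2 fold change over members was -0.15 in +/1013 (0.00 over all genes tested) and -0.18 in 1013/1013 (0.01 over all genes), and -0.05 between the mutants. All 3 1013/1013 libraries were below all WT libraries for 6 members (among them Rpl3l, Rpl37a, Rps4x, Rps15 and Rps27), against 3.63% of all genes, and all 3 +/1013 libraries for 3 members (Rpl3l, Rpl7a and Rps20), against 2.46%. Between the mutants 1 member lay lower in 1013/1013, against 3.79%. Leukocyte transcripts varied between OPC libraries. Ptprc was at 52.8 CPM in WT replicate 3, 118 CPM in 1013/1013 replicate 2 and at most 2.84 CPM in the others. These libraries had the highest and lowest family medians against the WT mean in OPCs, 0.15 and -0.33. With 1 library left out at a time, 1013/1013 against WT had 0 calls and medians of -0.32 to -0.11. The part of these transcripts in the OPC comparisons and the interaction was not tested.

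Rplp0 in OPCs measured 331, 375 and 466 CPM in WT, 352, 361 and 361 CPM in +/1013 and 342, 294 and 399 CPM in 1013/1013, and Rpl37a measured 4.29, 4.71 and 6.64 CPM, 3.73, 5.26 and 3.36 CPM and 4.12, 3.89 and 4.2 CPM. Both overlapped between WT and +/1013. Among members of at least 10 CPM over all libraries, the lowest log2 fold changes were -0.94 ± 0.82 for Rps27 in +/1013 and -0.76 ± 0.81 for Rps27 in 1013/1013, and the highest was 0.65 ± 0.44 for Rpl21 in 1013/1013, all in comparisons with WT and none larger than 2 SE.

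Whether the effect of genotype differed between the cell types was tested by the interaction in 1 fit of all 17 libraries. In +/1013, 13 members had a larger log2 fold change in SSCs than in OPCs and 0 a smaller one, against 0.0692% of all 20238 genes tested, or 14 genes. In 1013/1013, 18 members had a larger change in SSCs and 0 a smaller one, against 0.119% of all genes, or 24 genes. The median difference over members was 1.30 in +/1013 and 1.39 in 1013/1013, against -0.14 and -0.39 over all genes. With 1 library left out at a time the calls ranged from 0 to 8 in +/1013 and from 0 to 36 in 1013/1013, with 35 higher and 1 lower when SSC 1013/1013 replicate 2 was left out, against 1.6% and 7.12% of all genes. With the replicate number as a block there were 0 calls in either, and with the mRNA length trend taken out of each library 1 in each. Without both SSC libraries that stood apart there were 0 calls in either.

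Rps20 had the smallest unadjusted p of the members in both, with a difference of 1.59 ± 0.22 (adjusted p = 0.0449) in +/1013 and 1.63 ± 0.23 (adjusted p = 0.0202) in 1013/1013. In OPCs it measured 31.6, 35.4 and 32.9 CPM in WT, 31.4, 28.9 and 25.3 CPM in +/1013 and 28.9, 25.1 and 31.6 CPM in 1013/1013. All +/1013 values lay below the WT range, and the highest 1013/1013 value lay just within it. Rpl8, a protein beside the peptidyl transferase centre (chromosome 15, 76904078 to 76906314, plus strand), measured 246, 259 and 295 CPM, 267, 232 and 220.2 CPM and 207, 205 and 264 CPM in the OPC groups and 86.7, 94.8 and 90.2 CPM, 243, 229 and 205 CPM and 211 and 239 CPM in the SSC groups. Its difference was 1.47 ± 0.22 in +/1013 and 1.55 ± 0.23 in 1013/1013 (adjusted p = 0.0449 and 0.023). Rps3a1, a protein of the mRNA exit platform, differed by 1.49 ± 0.23 and 1.66 ± 0.24 (adjusted p = 0.0449 and 0.0202).

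Rpl32 and Rpl7a were among the first 5 in +/1013, with differences of 1.82 ± 0.27 and 1.35 ± 0.20 (adjusted p = 0.0449 for each). In 1013/1013, Rps4x, the X-linked small-subunit protein, differed by 1.71 ± 0.24 (adjusted p = 0.0202) and Rpl14 by 1.61 ± 0.24 (adjusted p = 0.023). Rps4x measured 20.95, 22.7 and 22.1 CPM, 24.7, 21.4 and 20.5 CPM and 19.1, 16.8 and 20.3 CPM in the OPC groups, against 67.7, 75.9 and 88.01 CPM, 224, 181 and 164 CPM and 229.8 and 202 CPM in the SSC groups. Rpl37a had differences of 2.02 ± 0.33 and 1.99 ± 0.35 (adjusted p = 0.0458 and 0.0397).

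The cell types were then compared within each genotype. In WT, 47 members were higher in SSCs than in OPCs and 10 lower, against 5.55% of all genes higher and 5.86% lower. In +/1013, 71 were higher and 2 lower (6.44% and 6.02% of all genes), and in 1013/1013, 70 were higher and 1 lower (6.94% and 6.12%). The median log2 difference of the members was 1.28 in WT, 2.69 in +/1013 and 2.74 in 1013/1013.

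The log2 values of the 77 canonical members had an SD of 1.83 in the comparison of WT cell types, against 0.375 in the comparison of +/1013 with WT SSCs. Rpl36 (chromosome 17, 56613416 to 56614243, plus strand) measured 0.434, 0.422 and 0.293 CPM in WT OPCs and 16.8, 17.4 and 14.8 CPM in WT SSCs, a log2 difference of 5.40 ± 0.33 (adjusted p = 3.96e-07). Rpl9 measured 3.34, 0.617 and 1.32 CPM in WT OPCs and 66.5, 69.7 and 62.6 CPM in WT SSCs (5.23 ± 0.62), and Rpl28 0.549 ± 0.0963 CPM and 16.6 ± 1.26 CPM (mean ± SD, n = 3; log2 4.90 ± 0.48). In the other direction, Rpl8 measured 246, 259 and 295 CPM in WT OPCs and 86.7, 94.8 and 90.2 CPM in WT SSCs (-1.56 ± 0.16, adjusted p = 4.31e-05). Rps3, a protein of the mRNA entry, measured 243, 243 and 314 CPM and 97.6, 92.2 and 106 CPM (-1.44 ± 0.17). Further members called lower in WT SSCs were Rplp0, Rpl4, Rpl7l1, Rpl13a, Rpl22, Rpl36al and Rps9.

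Per kilobase of mRNA, Rpl4 was at 358 CPM in OPCs and Rpl36 at 1.01 CPM, although both proteins are single-copy parts of the same large subunit. Over SSCs the same genes were at 284 and 79.1 CPM per kilobase.

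The spread across members in the cell-type comparison ran along with how much of each mRNA also occurs elsewhere in the annotated transcripts. For each gene the share of 50-base stretches of its mRNA that are found in a transcript of another gene, pseudogenes included, was counted in the GENCODE M21 transcripts. It ranged from 0 to 98.6% over the 77 canonical genes, with a median of 40.1%. In WT, the median log2 difference of SSCs from OPCs was -0.30 for the 12 genes with under 20% shared, 1.28 for the 41 genes with 20 to 60%, and 2.82 for the 24 genes with 60% or more. Across the 77 genes Spearman's rho was 0.48 and Pearson's r 0.52, a description across genes of the same libraries.

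Rps3 and Rpl8, which were lower in WT SSCs, had 2.96% and 6.3% of their stretches shared, while Rpl36 and Rpl9 had 81.1% and 83.2%. Reads that match several places and are set aside by the counting took 7.75 to 10.4% of reads or read pairs in the OPC tables, 5.10 to 5.65% in SSC WT and 5.76 to 8.56% in mutant SSCs. The genotype comparison within SSCs did not run along with the same measure: in +/1013 the medians of the 3 classes were 1.23, 1.13 and 1.21, and in 1013/1013 they were 1.24, 1.20 and 1.24. The part of read matching in the difference between cell types was not tested, and levels of genes with many shared stretches are uncertain.

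**Figure D4:**
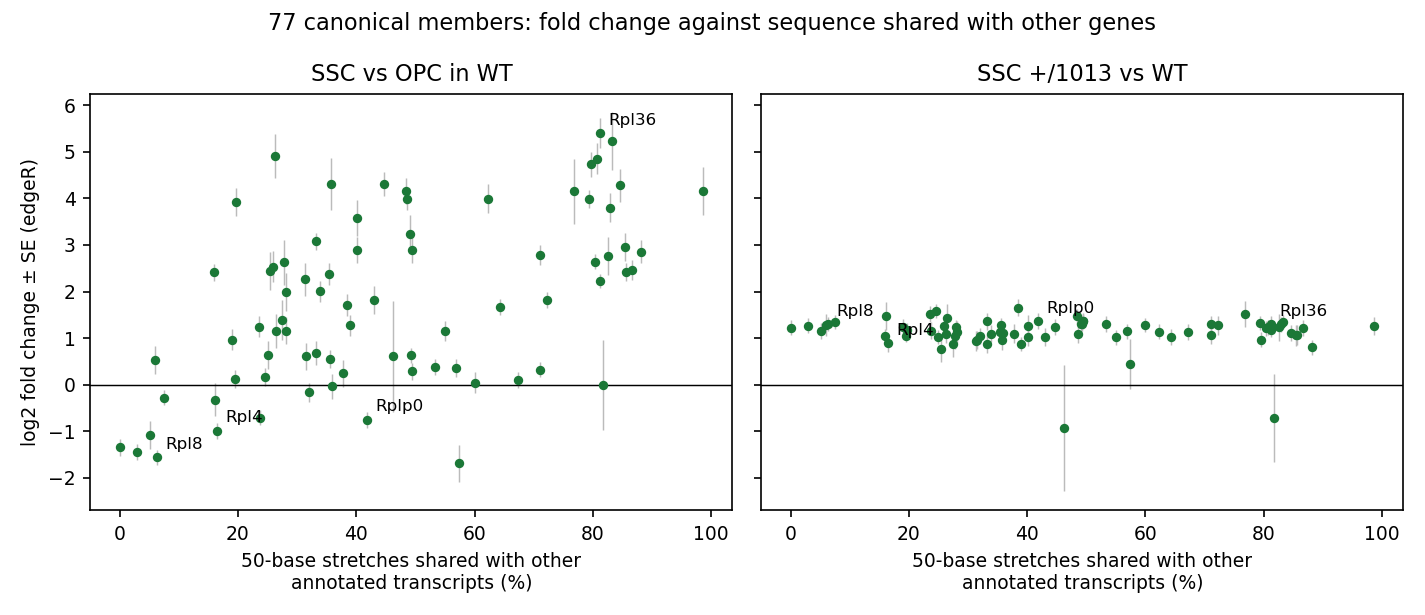
Fitted log2 fold change ± SE of each of the 77 canonical members (dots) against the percent of its 50-base mRNA stretches that also occur in transcripts of other genes, for WT SSCs against WT OPCs and for +/1013 against WT SSCs. Class medians climb from -0.30 to 2.82 in the comparison of cell types, and stay at 1.23, 1.13 and 1.21 in the comparison of genotypes.

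Short mRNAs as a class were also higher in mutant SSCs. The canonical members have a median mRNA length of 827 bases, and 54 of the 77 are under 1000 bases. Among other genes of at least 10 CPM, the median log2 fold change in +/1013 SSCs was 0.62 for the 410 genes with an mRNA under 1000 bases, 0.38 for 1727 genes of 1000 to under 2000 bases, 0.05 for 3521 genes of 2000 to under 4000 bases and -0.41 for 2507 longer genes. The same medians in 1013/1013 were 0.69, 0.40, -0.01 and -0.47. In 1013/1013 OPCs they were -0.21, -0.06, 0.02 and 0.06, so the order was the opposite there.

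A fit that took the trend with mRNA length out of each library, added after the data had been seen, left the members' median at 0.53 in +/1013 and 0.52 in 1013/1013 SSCs, with 0 calls in both. In that fit 51 members in +/1013 and 46 in 1013/1013 were still higher at an unadjusted p under 0.05, against 4.42% and 5.77% of all genes, and 0 and 1 lower. Within canonical members the fold change did not fall with mRNA length (Spearman's rho 0.09 in +/1013 and 0.19 in 1013/1013, n = 77 genes of the same libraries). Whether the length trend arose in the cells or in the preparation of the libraries was not tested.

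**Figure D5:**
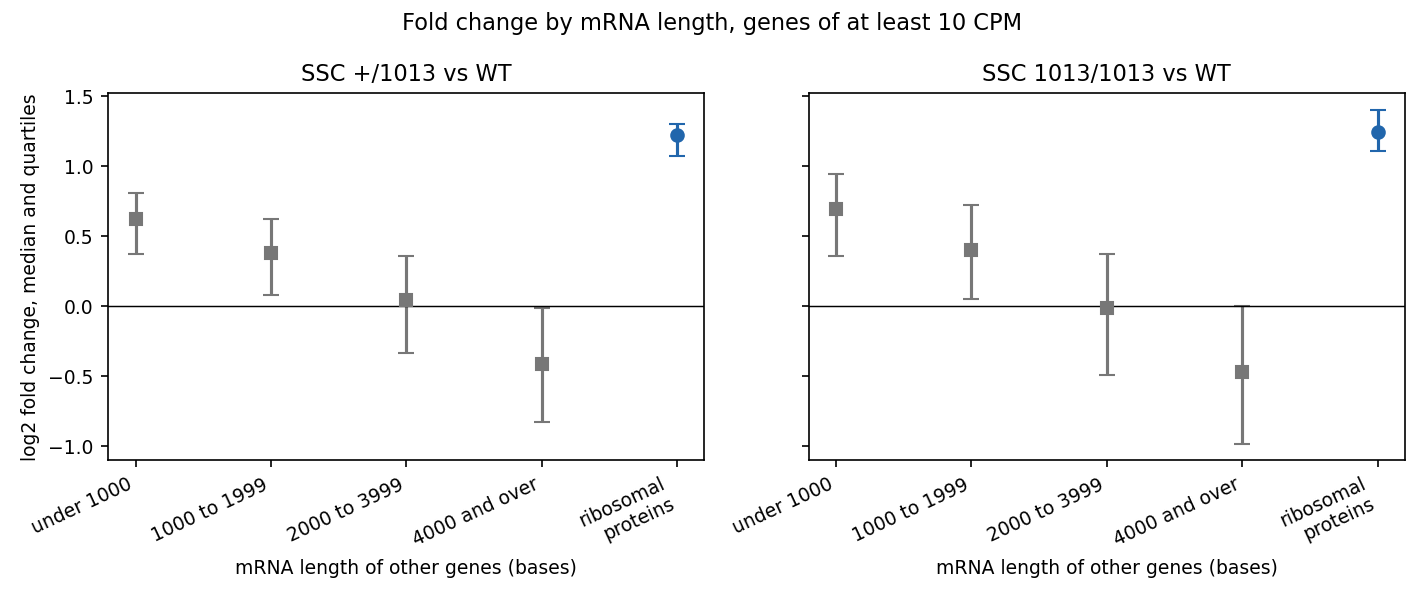
Median (marker) and quartiles (bars) of the log2 fold change against WT in SSCs of +/1013 and 1013/1013 mice, for other genes of at least 10 CPM by mRNA length and for the 65 canonical ribosomal protein genes of at least 10 CPM. Medians of other genes go from 0.62 and 0.69 under 1000 bases to -0.41 and -0.47 at 4000 bases and over, and the ribosomal protein genes stand at 1.22 and 1.24.

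Ribosomal proteins whose symbols fall outside the rule were measured beside the family. Rack1, a small-subunit scaffold protein, was at 85.4, 84.1 and 92.7 CPM in SSC WT, 193, 159.6 and 142 CPM in +/1013 and 178 and 154 CPM in 1013/1013 (log2 fold changes 0.89 ± 0.18 and 0.94 ± 0.19). Fau, which encodes Rps30 fused to a ubiquitin-like protein, was at 20.5, 19.5 and 19.2 CPM, 41.3, 39.96 and 38.4 CPM and 35.3 and 43.4 CPM (1.00 ± 0.17 and 1.01 ± 0.18). Neither overlapped between WT and mutants, and neither passed (adjusted p = 0.114 and 0.107 for Rack1, 0.0826 and 0.0864 for Fau).

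Genes of ribosome production other than the proteins themselves had smaller median fold changes. Of 6 lists, none had a gene called in either SSC comparison. The 15 genes of the RNA polymerase I machinery, which transcribes ribosomal RNA, had a median log2 fold change of 0.10 in +/1013 and 0.01 in 1013/1013, and at an unadjusted p under 0.05 had 1 and 0 genes higher and 2 and 2 lower. The 11 genes of pre-rRNA modification had medians of 0.47 and 0.57, with 4 and 5 higher and 0 lower. Nhp2, a core protein of the H/ACA particles that guide pseudouridylation, stood at 0.83 ± 0.18 and 1.07 ± 0.20 (adjusted p = 0.125 and 0.0951), and the nucleolar protein Npm1 at 0.96 ± 0.29 and 0.88 ± 0.31.

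The 15 genes of small-subunit assembly had medians of 0.08 and 0.23, with 0 and 2 genes higher and 1 and 1 lower at an unadjusted p under 0.05. Heatr1, a long nucleolar factor of that list, stood at -1.48 ± 0.45 and -2.23 ± 0.54 (adjusted p = 0.187 and 0.132). The 18 genes of large-subunit assembly had medians of 0.38 and 0.18, with 5 and 4 higher and 0 lower. Eif6, which keeps new large subunits from joining too early, stood at 0.72 ± 0.14 and 0.68 ± 0.15 and Rrp15 at 0.94 ± 0.21 and 0.89 ± 0.23. The 7 chaperones of ribosomal proteins tested, of 8 listed, had medians of 0.51 and 0.19, with 3 and 2 higher and 0 lower. The 15 regulators tested, of 16 listed, had medians of -0.55 and -0.57, with 3 and 2 higher and 2 and 3 lower. Among the regulators, Myc, a transcription factor that drives ribosome production, stood at 1.48 ± 0.60 and 1.48 ± 0.64 (adjusted p = 0.267 and 0.276), and Mtor at -0.80 ± 0.28 and -0.85 ± 0.32 (adjusted p = 0.223 and 0.231). All these medians were under those of the family.

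The promoters of the members were read because a pyrimidine run at the start is the feature the family is known for. RefSeq promoters of GRCm38.p6 were available for 66 of the 86 genes, with 78 start sites. A start was counted as carrying a pyrimidine run where a C within 5 bases of it was followed by at least 4 further C or T on the strand of the gene. Of the 78 promoters 32 (41.0%) carried a run, against 18.3% of 32851 promoters of all genes. The following windows reach 15 bases to each side of the start, with the run in capitals. The first 6 belong to members that rose or lay above WT in every mutant SSC library, the next 2 are the parent Rps27 and its retrogene Rps27rt, and the last 3 have no run.
Rplp2: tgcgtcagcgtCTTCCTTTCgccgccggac
Rpl14: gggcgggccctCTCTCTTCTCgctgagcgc
Rpl7a: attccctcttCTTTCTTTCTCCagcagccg
Rps18: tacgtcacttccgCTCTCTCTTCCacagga
Rps6: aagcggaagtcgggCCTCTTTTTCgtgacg
Rps23: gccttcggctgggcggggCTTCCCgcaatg
Rps27: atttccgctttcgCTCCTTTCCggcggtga
Rps27rt: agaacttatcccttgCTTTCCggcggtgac
Rplp0: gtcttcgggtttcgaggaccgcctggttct
Rpl37a: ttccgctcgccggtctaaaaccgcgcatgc
Rps19bp1: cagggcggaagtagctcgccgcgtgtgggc
The windows of Rplp2 (chr7:141447636-141447665, plus strand), Rpl14 (chr9:120571502-120571531, plus strand) and Rps6 (chr4:86857353-86857382, minus strand) hold runs of 9, 10 and 10 bases. A run near an annotated start is a description, since the start used in these cells was not measured here. In SSCs the 27 canonical genes with a run had a median log2 fold change of 1.18 in +/1013 and 1.19 in 1013/1013, and the 30 with a promoter but no run had 1.14 and 1.21. Rpl37a and Rplp0, without a run in the window, stood at 1.66 and 1.36 in +/1013, and Rpl14 and Rps23, with one, at 1.31 and 1.47.

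Many members, but not all, varied together beyond the groups. Over the 17 libraries, the deviation of each canonical gene of at least 10 CPM from its own group mean correlated with the median deviation of the other members at a median Pearson's r of 0.63, against -0.03 for 8215 other genes of at least 10 CPM. Among these canonical genes r ran from -0.27 for Rpl9 to 0.89 for Rpl29, and it was 0.05 for the abundant Rpl4. The libraries share depth and preparation, so this is a description. The other genes most like the family by this measure were Eif3g (0.87), Exosc7 (0.86), Eif6 (0.85), Ndufc2 (0.84) and Btf3 (0.83).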

How the data were processed

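Bulk RNA was sequenced from pools of 3000 sorted cells, with cDNA made by SMART-Seq v4 and libraries by Nextera XT, a kit that does not mark strand. Per the study's methods, the authors removed reads under 50 bases, used STAR to align the read pairs to mm10, and used HTSeq for the gene counts. Versions, annotation and counting settings are not given in the sources used here. The deposited values are raw read counts per gene, 1 table per library, and the closing HTSeq counters were left out of library sizes.

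Of 55335 gene identifiers, 55154 matched GENCODE M21. The members and all gene lists were chosen with earlier results of these data known. Genes passing filterByExpr were scaled by TMM and tested with the quasi-likelihood test of edgeR 4.0.16 (R 4.3.3), with 3 genotypes per cell type in 1 fit, and all 17 libraries in 1 fit for cell types and for the interaction. P-values were adjusted by Benjamini-Hochberg over all genes tested, and a gene was called at an adjusted p under 0.05 and at least 1.5-fold. The SE is the log2 fold change over the square root of F. CPM is the usual depth-scaled count, on TMM-scaled library sizes. The steps were tested on simulated data. DESeq2 1.42.0, other scalings and filters, left-out libraries, a replicate block and, after the data had been seen, an mRNA length offset and the removal of both libraries that stood apart were the alternatives. The labels do not say that libraries of the same replicate number belong together. Same-numbered OPC libraries had r of 0.151 to 0.490 in WT with +/1013 and 0.121 to 0.261 in +/1013 with 1013/1013. Different-numbered OPC libraries ran from -0.526 to 0.534, so these values do not establish pairs. In those 2 comparisons 0 members were called with and without the replicate block. P-values measure the spread between pools. No pair of libraries within a group looked like 1 library deposited again, and pairs across groups were not examined for this.

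Named genes were the stalk genes and Rpsa, the 3 of each subunit highest per kilobase, paralogs with their parents, Rps19bp1, the other ribosomal proteins, the 3 largest rises and falls of each comparison at 10 CPM or more, and the 5 smallest adjusted p among calls. The genes singled out for exon overlap or for their promoter windows were chosen after their values were seen. Results for a few genes that the rule names are not reported here. Sequences are from RefSeq.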

Additional observations from a re-analysis of the deposited data

Results flagged for a closer look

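The effect of genotype differed between the cell types by the interaction test of edgeR. For 1013/1013 the log2 change was larger in SSCs for 18 members, led by Rps20 (1.63), Rps4x (1.71), Rps3a1 (1.66), Rpl14 (1.61) and Rpl8 (1.55). For +/1013 it was larger for 13 members, led by Rps20 (1.59), Rpl32 (1.82), Rpl8 (1.47), Rpl7a (1.35) and Rps3a1 (1.49). Of all genes tested, 0.119% (24 genes) were called higher for 1013/1013 and 0.0692% (14 genes) for +/1013. These calls depended on the fit: with the replicate block, with no filter and without both SSC libraries that stood apart 0 members were called in either, and with the length offset 1 in each. Both mutant genotypes share the WT libraries as their reference within a cell type.

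Annotated pseudogenes named after ribosomal proteins, which are not members of the family, also held more of the library in mutant SSCs. Of 301 such pseudogenes, 264 had a count. Their share of the counts averaged 0.00540% in SSC WT, 0.00849% in SSC +/1013 and 0.00833% in SSC 1013/1013, with ranges of 0.00476 to 0.00591%, 0.00820 to 0.00892% and 0.00804 to 0.00861% that did not overlap WT. Over the OPC libraries the share averaged 0.00498%, with a range of 0.00424 to 0.00598% that overlapped SSC WT. Reads of a pseudogene and of its parent gene cannot be told apart where their sequences are the same.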

How the results depend on the processing

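The medians of the members kept their direction under all alternatives run in the comparisons of mutant with WT SSCs, of cell types and of the interaction, while the number of calls did not hold. In 1013/1013 against WT SSCs (0 called), requiring 10 counts in every library gave 29, DESeq2 75, all 17 libraries in 1 fit 38, and leaving out 1 library 0 to 60. In +/1013 against WT SSCs (12 called), DESeq2 size factors, no filter, the length offset and the removal of both libraries that stood apart each gave 0, TMM without members, collagen and mitochondrial genes 26, the 10-count filter 39, DESeq2 73, all 17 libraries 40, and leaving out 1 library 0 to 0. In the interaction for 1013/1013 (18 called), no filter gave 0, DESeq2 56, the length offset 1, the removal of both libraries 0, and leaving out 1 library 0 to 36. For +/1013 (13 called), DESeq2 size factors, TMM without those genes, no filter, the edgeR setting legacy = FALSE and the removal of both libraries each gave 0, DESeq2 49, the length offset 1, and leaving out 1 library 0 to 8. Apart from the left-out samples, the cause was not tested.

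The length offset moved the median log2 fold change of members to 0.52 in 1013/1013 and 0.53 in +/1013 SSCs, to 1.499, 2.04 and 1.96 for SSCs against OPCs in WT, +/1013 and 1013/1013, and to 0.46 and 0.56 for the interactions of 1013/1013 and +/1013. With canonical genes alone the cell-type medians were 1.82, 3.10 and 3.23, and with the 10-count filter 2.87 in +/1013. Leaving out 1 library gave 1.14 to 1.45 in WT and 2.62 to 2.89 in +/1013. Without collagen and mitochondrial genes, the OPC shares were 0.394, 0.377 and 0.348% in WT, +/1013 and 1013/1013.

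Apart from OPC WT with +/1013 and OPC +/1013 with 1013/1013, same-numbered libraries did not all deviate together. Their r was -0.481 to 0.462 for OPC WT with 1013/1013 and -0.215 to -0.140 for SSC WT with +/1013. It was -0.112 to 0.139 in the other SSC comparisons, of 2 pairs each. With the replicate block, 0 members were called in +/1013 SSCs and 0 in each interaction, and the cell-type median in 1013/1013 was 2.57. Among the named genes, 1149 values kept their side of the threshold, 258 lost and 97 gained it, and 10 results changed sign under some alternative, among them Rps19bp1, Rpl22l1, Rpl7l1, Rpl3l, Rpl39l and Rpl21. Rpl10l and Rps27rt had too few counts in SSCs for a comparison.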
